A study of Homo sapiens with 96 samples.

Results

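The ERBB family of receptor tyrosine kinases, EGFR, ERBB2, ERBB3 and ERBB4, was measured in the HaCaT human keratinocyte line and its derivatives on Affymetrix U133 Plus 2.0 arrays. They are 4 of 19775 named genes on the array, chosen as the members of this receptor family, and were followed through every probe set that the platform annotation assigns to 1 of them alone, which gave 21 of 54675 probe sets. EGFR had 9 probe sets, ERBB2 3, ERBB3 5 and ERBB4 4. No rule on their values was used to choose them, but earlier results of these data were known at the time. HaCaT-Mock was the control line. Other HaCaT cells carried an overexpressed EGFR (HaCaT-EGFR), an activated HRAS (HaCaT-HRAS, HRASVal12D in the labels) or a mutant PIK3CA (HaCaT-PIK3CA, PIK3CA-HR in the labels). Each construct was delivered in a lentiviral vector with a CMV promoter and selected with puromycin, so the introduced genes were driven by a viral promoter and not by their own. The methods do not say whether pools or clones were kept. Cells received PBS, the tyrosine kinase inhibitors afatinib at 10 nM or gefitinib at 100 nM, or the anti-EGFR antibody cetuximab at 100 nM for 24 hours. Other arrays held cells with an siRNA against EGFR (siEGFR), a scrambled siRNA (scramble), or scramble together with PBS or an inhibitor. A group of line and treatment held 3 arrays at most, 2 for HaCaT-EGFR under PBS and HaCaT-PIK3CA under gefitinib, and 1 for scramble together with each inhibitor. The carcinoma lines SCC1 and SCC25 had 2 arrays each, and FaDu, FaDu under PBS and parental HaCaT had 1 each, for 96 arrays in all. The labels do not say whether replicate arrays came from separate cultures, and the error behind each p-value is then the spread among arrays, part of which may be technical.

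ERBB receptors sit in the plasma membrane and signal as pairs. Ligands such as TGFA and HBEGF bind EGFR, and neuregulins bind ERBB3 and ERBB4. ERBB2 has no known ligand and is the preferred partner of the others, while ERBB3 has a weak kinase and recruits PI3K once its partner has phosphorylated it. In epidermis EGFR drives the proliferation and migration of basal keratinocytes, and loss of its signal favours differentiation. Gefitinib and afatinib occupy the kinase domain, reversibly in the first case and covalently in the second, afatinib also acts on ERBB2 and ERBB4, and cetuximab covers the ligand-binding face of EGFR.

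The cells carried the markers of keratinocytes. Of 10 such genes, 6 were named by a probe set here, and their mean log2 values over the 89 HaCaT construct arrays ran from 8.64 for ITGB4 to 12.6 for KRT14. Markers of other cell types, 16 of 20 measured, had gene means from 3.32 to 7.25. Experimental batches J, E and M, named so in the labels, held 53, 16 and 26 arrays and entered every test as a term. Batch P held 1 array, that of FaDu under PBS, which was not tested. The array labelled HaCaT-HRAS gefitinib replicate 1 lay farthest from its group and batch across all probe sets (root mean square residual 0.301 on the log2 scale against 0.110 for the array of middle rank), followed by HaCaT-PIK3CA afatinib replicate 1 at 0.216, and HaCaT-HRAS gefitinib replicate 2 lay at 0.178. HaCaT-HRAS gefitinib replicate 3 (0.210) and HaCaT-PIK3CA cetuximab replicate 2 (0.197) lay farther out than the last of these and were kept. The first 3 arrays named are called below the 3 arrays that stand apart. They were picked by name and not by a cut on the residual, and they are not the 3 of highest residual. For the brightest probe set of each receptor, every result recomputed without these 3 arrays whose call then changed is given both ways.

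The promoters of the receptors are shown because EGFR and ERBB2 transcripts both rose on average under the inhibitors. Transcription factors that bind such sequences were measured on the same arrays. RefSeq windows of 250 bases before a transcription start on GRCh38.p14 were found for EGFR, ERBB2 and ERBB4. ERBB3 is not in the table. The first EGFR window lies at chr7:55018767-55019016 on the plus strand and the ERBB2 window at chr17:39687844-39688093 on the plus strand. Each lies directly before a listed transcription start, which need not be the main start of the gene. Capitals mark the letters of the AP-2 motif GCCNNNGGC.
EGFR promoter: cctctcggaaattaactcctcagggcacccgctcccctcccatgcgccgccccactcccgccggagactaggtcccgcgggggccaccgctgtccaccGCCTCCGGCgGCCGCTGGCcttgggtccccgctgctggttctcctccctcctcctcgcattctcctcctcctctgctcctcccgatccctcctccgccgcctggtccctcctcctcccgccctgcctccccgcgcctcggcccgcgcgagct
ERBB2 promoter: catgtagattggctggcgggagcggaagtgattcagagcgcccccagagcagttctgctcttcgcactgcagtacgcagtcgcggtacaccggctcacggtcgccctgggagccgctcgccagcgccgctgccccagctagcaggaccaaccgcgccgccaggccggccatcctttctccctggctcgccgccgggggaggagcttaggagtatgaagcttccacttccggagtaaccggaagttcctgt
The EGFR window was 73.6% G and C with 25 CpG, and the ERBB2 window 65.6% with 23 CpG. The AP-2 motif occurred in EGFR at 2 adjoining places that begin 152 and 142 bases before the start, as GCCTCCGGC and GCCGCTGGC. The GC box GGGCGG, read on both strands, occurred in it 2 times, and neither motif overlapped the other. None of AP-2, the GC box, the FOXO letters GTAAACA and the AP-1 letters TGACTCA was found in the 1 ERBB2 window. Bases before any other start of ERBB2 were not read, so the absence holds for this window alone. The study lists ERBB2 among the annotated targets of AP-2alpha. Of 35116 promoter windows of this length, 19.8% held the AP-2 motif, 42.6% the GC box, 2.98% the FOXO letters and 4.20% the AP-1 letters. The second EGFR window, inside the gene, was 38.8% G and C and held 2 AP-1 matches, and the ERBB4 window on chromosome 2 held 1 GC box. A match in these letters is a description and was tied to no binding measurement.

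The probe sets of a gene differed widely in how bright they were, which limits what each can show. The brightest for EGFR, 224999_at, averaged 10.44 on the log2 scale over the 89 construct arrays, which lay at the 96.3 percentile of an array on average. For ERBB3 the brightest was 226213_at at 8.487 (87 percentile) and for ERBB2 216836_s_at at 8.231 (85.2 percentile). All 4 ERBB4 probe sets were dim, with means of 4.287, 4.187, 3.757 and 3.741, against a median of 3.99 over 43 probe sets of genes of other cell types. Levels of different probe sets are not on a common scale, so these figures do not rank the receptors. Across the 89 arrays the EGFR probe sets 224999_at, 201983_s_at and 201984_s_at moved together (r from 0.81 to 0.91), as did 226213_at and 202454_s_at of ERBB3 (r = 0.94). The EGFR probe sets 210984_x_at and 211607_x_at followed each other at 0.99 but 224999_at at only 0.52 and 0.53, and they read 1.03 and 1.01 log2 units higher in batch M than in batch J, where 224999_at read 0.61 lower. These correlations are a description over arrays that share treatments and batches.

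EGFR siRNA lowered EGFR in every line. In HaCaT-Mock 224999_at was 10.95, 10.78 and 10.19 with scramble and 8.72, 8.90 and 7.98 with siEGFR. HaCaT-EGFR went from 10.75, 10.75 and 10.06 to 9.04, 9.10 and 8.31. HaCaT-HRAS went from 10.60, 10.80 and 9.93 to 8.71, 8.73 and 7.96. HaCaT-PIK3CA went from 10.52, 10.62 and 9.96 to 8.81, 8.66 and 7.95. No siEGFR array reached the lowest scramble array of its line, and the third value of each set is from batch M. The change was -2.11 in HaCaT-Mock, -1.97 in HaCaT-HRAS, -1.89 in HaCaT-PIK3CA and -1.71 in HaCaT-EGFR. Their mean of -1.92 is 0.264-fold (SE 0.0485, limma adjusted p = 1.9e-36). The fall in HaCaT-EGFR was smaller than in HaCaT-Mock by 0.40, which did not pass over all probe sets (limma adjusted p = 1). The probe sets 210984_x_at and 211607_x_at fell by 1.07 and 1.02 on the log2 scale, and the third x_at probe set of EGFR, 1565484_x_at, changed by 0.08 (95% interval -0.10 to 0.25, adjusted p = 0.65).

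ERBB3 was the other receptor that moved with EGFR siRNA, and it moved upward. The probe set 226213_at was 8.01, 7.93 and 7.82 with scramble and 8.47, 8.70 and 8.47 with siEGFR in HaCaT-Mock. It went from 8.18, 8.17 and 8.00 to 8.84, 8.78 and 8.67 in HaCaT-EGFR. In HaCaT-HRAS it went from 8.35, 8.41 and 8.28 to 8.84, 8.79 and 8.82. In HaCaT-PIK3CA it went from 7.86, 8.04 and 7.83 to 8.53, 8.53 and 8.43. In all 4 lines the 3 siEGFR arrays lay above the 3 scramble arrays. The rise was 0.63, 0.65, 0.47 and 0.59 in that order, and its mean of 0.58 is 1.5-fold (SE 0.0392, adjusted p = 6.5e-18). Arrays with scramble and PBS together were not part of this test. The 1 such array of HaCaT-Mock read 8.57, inside the range of the siEGFR arrays of that line. In the other lines these arrays lay below the siEGFR arrays. The probe set 202454_s_at rose by 0.61 (adjusted p = 8.8e-14). The rise in HaCaT-HRAS differed from that in HaCaT-Mock by -0.16, with a 95% interval from -0.38 to 0.06. ERBB2 216836_s_at changed by 0.12 (95% interval 0.03 to 0.22, adjusted p = 0.065), which did not pass the test, and no ERBB4 probe set was called. Without the 3 arrays that stand apart the same ERBB2 change of 0.12 passed (adjusted p = 0.0011), as did those within HaCaT-Mock (0.18, adjusted p = 0.034) and HaCaT-EGFR (0.19, adjusted p = 0.026). Averaged over lines, 8 of the 21 probe sets were called, 2 higher and 6 lower, where 18.9% of all probe sets were. Within each line the same 2 ERBB3 probe sets were called higher and the same 5 EGFR probe sets lower, against backgrounds of 6.18% in HaCaT-PIK3CA, 5.81% in HaCaT-Mock, 5.02% in HaCaT-EGFR and 3.24% in HaCaT-HRAS. In HaCaT-HRAS the call of 202454_s_at was lost without scramble replicate 3 (0.40, adjusted p = 0.064).

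**Figure D1:**
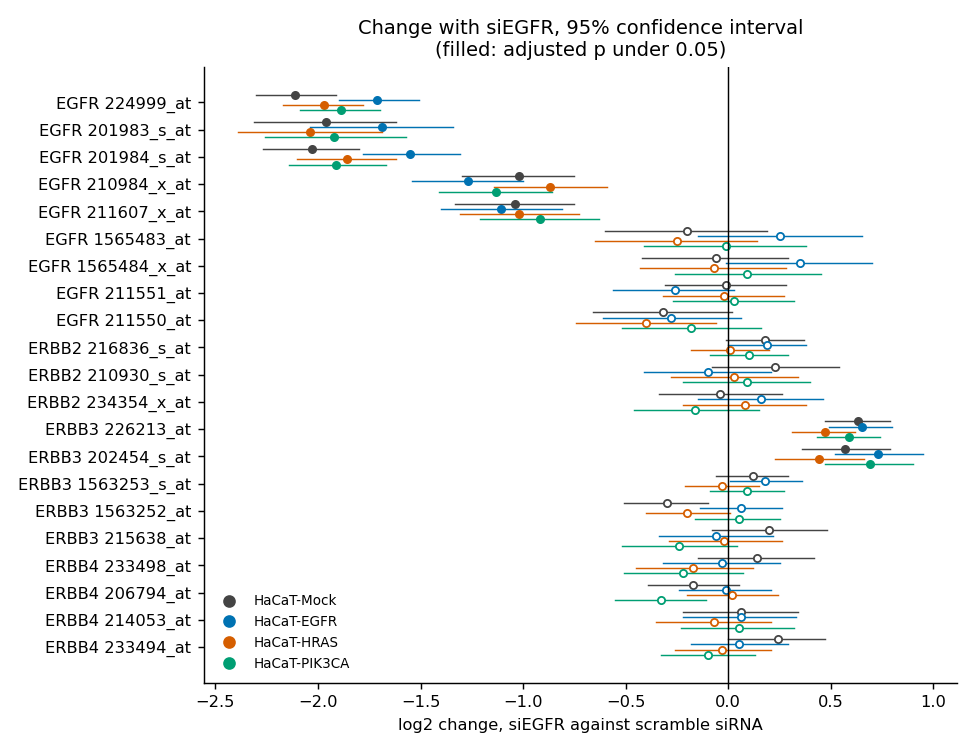
Change of each of the 21 receptor probe sets with siEGFR against scramble (log2, horizontal axis) in the 4 HaCaT lines, with 95% intervals; filled points passed an adjusted p of 0.05. The 5 bright EGFR probe sets lie to the left of 0 and the ERBB3 probe sets 226213_at and 202454_s_at to the right in every line.

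ERBB3, ERBB2 and EGFR transcripts rose on average with the EGFR inhibitors, and EGFR did so neither in every line nor with every agent. Averaged over the 3 inhibitors and 4 lines, ERBB3 226213_at rose by 0.44 (SE 0.0339, 1.36-fold, limma adjusted p = 3.2e-16), ERBB2 216836_s_at by 0.34 (SE 0.0412, 1.26-fold, adjusted p = 1.1e-09) and EGFR 224999_at by 0.23 (SE 0.042, 1.17-fold, adjusted p = 1.5e-05). In all, 9 of the 21 probe sets were called, 8 higher and 1 lower, where 28.7% of all probe sets were called either way. The 8 were 5 of EGFR, 1 of ERBB2 and 2 of ERBB3, and they were the 8 brightest members. The lower one, the dim ERBB3 probe set 1563252_at (-0.13, adjusted p = 0.018), opposed the brighter probe sets of its gene, and its call was lost without HaCaT-EGFR PBS replicate 2 (-0.10, adjusted p = 0.14). Within batch J alone the 3 means were 0.42, 0.33 and 0.21, and each passed. Without the batch term that of EGFR was 0.11 and did not pass (limma adjusted p = 0.64). Arrays of bulk RNA cannot tell fewer expressing cells from less RNA per cell, and this holds for each change given here.

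For ERBB3 the inhibitor arrays and the PBS arrays did not overlap in HaCaT-Mock and HaCaT-EGFR. In HaCaT-Mock 226213_at was 8.11, 8.10 and 8.33 with PBS, 8.90, 9.15 and 8.74 with afatinib, 8.63, 9.03 and 8.58 with gefitinib and 8.50, 8.81 and 8.47 with cetuximab. All 9 inhibitor arrays lay above the 3 PBS arrays, and the second value of each inhibitor and the third of PBS came from batch E. In HaCaT-EGFR it was 8.16 and 8.17 with PBS, 8.99, 8.89 and 8.79 with afatinib, 8.78, 8.78 and 8.67 with gefitinib and 8.62, 8.71 and 8.58 with cetuximab. Here too all 9 lay above PBS. In HaCaT-HRAS it was 8.43, 8.48 and 8.30 with PBS, 8.62, 8.53 and 8.53 with afatinib, 8.64, 8.57 and 8.48 with gefitinib and 8.55, 8.53 and 8.45 with cetuximab. These groups lay close together, with 7 of 9 inhibitor arrays above the highest PBS array and 1 level with it at the digits given. The third value of each of these groups came from batch M, where PBS gave 8.30. Within each batch every HaCaT-HRAS inhibitor array lay above the PBS arrays. HaCaT-Mock and HaCaT-EGFR had no PBS array in batch M, so overlap is not directly comparable between the lines. In HaCaT-PIK3CA it was 8.08, 8.06 and 7.84 with PBS, 8.18, 8.54 and 8.33 with afatinib, 8.58 and 8.35 with gefitinib and 8.52, 8.06 and 8.28 with cetuximab, so 7 of 8 lay above PBS.

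**Figure D2:**
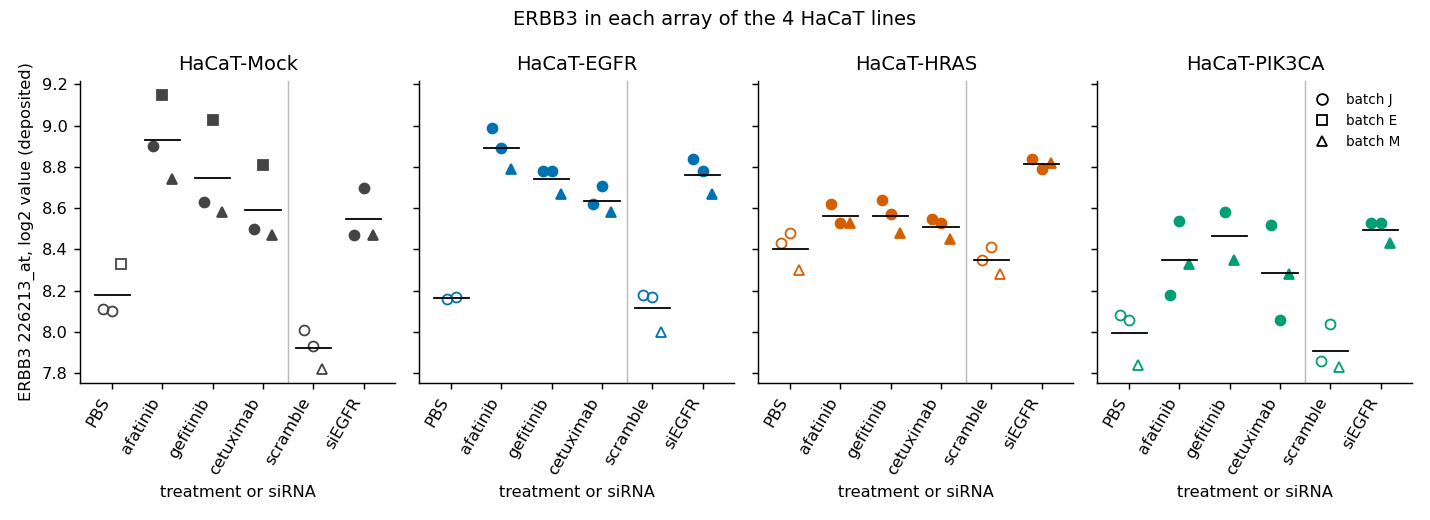
ERBB3 probe set 226213_at on the HaCaT construct arrays with PBS, an inhibitor, scramble or siEGFR, each given alone (log2 value, vertical axis); circles are batch J, squares batch E, triangles batch M, bars group means, and open symbols PBS or scramble. Inhibitor and siEGFR arrays of HaCaT-Mock and HaCaT-EGFR lie above their controls, and in HaCaT-HRAS the siEGFR arrays (8.79 to 8.84) lie above the plotted inhibitor arrays (8.45 to 8.64).

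Tested within lines, ERBB3 226213_at rose by 0.61 in HaCaT-Mock (SE 0.0646, adjusted p = 5e-11), 0.63 in HaCaT-EGFR (SE 0.0756, adjusted p = 3.7e-09) and 0.38 in HaCaT-PIK3CA (SE 0.0654, adjusted p = 1.7e-05). In HaCaT-HRAS the change was 0.14 and did not pass (adjusted p = 0.30). The difference between the responses of HaCaT-HRAS and HaCaT-Mock was -0.47 (SE 0.0909, adjusted p = 0.00038) for 226213_at and -0.53 (SE 0.124, adjusted p = 0.0041) for 202454_s_at. Without the 3 arrays that stand apart they were -0.47 (adjusted p = 8.8e-05) and -0.50 (adjusted p = 0.0054), and the change in HaCaT-HRAS was again 0.14. These were the 2 members called in that comparison, where 4.53% of all probe sets were. Without a batch term the difference for 226213_at was -0.43 (adjusted p = 0.051), and within batch J alone it was -0.45 (adjusted p = 0.17). In HaCaT-PIK3CA 202454_s_at rose by 0.35 (adjusted p = 0.0035), and by 0.24 without PBS replicate 3 (adjusted p = 0.16). The response of HaCaT-PIK3CA differed from HaCaT-Mock by -0.23 (adjusted p = 0.52). No member was called by limma for the responses of HaCaT-PIK3CA or HaCaT-EGFR against HaCaT-Mock, with backgrounds of 0.0623% and 0.00549%, and 6 and 2 had an unadjusted p under 0.05. Over the 21 members the calls within lines were 9 in HaCaT-EGFR (background 16.6%), 4 in HaCaT-Mock (18.8%), 3 in HaCaT-PIK3CA (12.0%) and 0 in HaCaT-HRAS (2.59%), where 3 had an unadjusted p under 0.05.

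In HaCaT-HRAS the ERBB3 change with siRNA passed the test and that with the inhibitors did not. There 226213_at rose by 0.47 with siEGFR (adjusted p = 4.7e-05), and the change with the inhibitors was 0.14. The difference between them was 0.32, with a 95% interval from 0.12 to 0.53, and did not pass over all probe sets (adjusted p = 0.10, background 1.57%). In HaCaT-PIK3CA the same difference was 0.21, with a 95% interval from 0.00 to 0.41 (adjusted p = 0.32), and in HaCaT-Mock and HaCaT-EGFR it was 0.01 and 0.02. Whether it differed between lines was not tested. The siRNA and inhibitor experiments have separate controls. In the main fit the control level of ERBB3 was higher in HaCaT-HRAS than in HaCaT-Mock, less surely with PBS than with scramble. The few arrays with scramble and PBS together ran the other way and were not tested. Within batch J the rise with siEGFR in HaCaT-HRAS was 0.43 (adjusted p = 0.081).

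ERBB2 rose with the inhibitors in 3 of the 4 lines, and in HaCaT-HRAS its change did not pass. With PBS 216836_s_at was 8.04, 7.86 and 8.17 in HaCaT-Mock, and it was 8.40, 8.56 and 8.84 with afatinib, 8.32, 8.56 and 8.79 with gefitinib and 8.24, 8.42 and 8.64 with cetuximab. In HaCaT-EGFR it was 7.94 and 8.03 with PBS, 8.44, 8.46 and 8.85 with afatinib, 8.49, 8.37 and 8.92 with gefitinib and 8.29, 8.32 and 8.70 with cetuximab. In both lines all 9 inhibitor arrays lay above all PBS arrays, and the highest value of each inhibitor came from batch M, which read 0.38 higher than batch J for this probe set. Neither line had a PBS array in batch M. Within batch J the inhibitor arrays of each of these lines also lay above its PBS arrays. In HaCaT-HRAS PBS gave 7.85, 7.91 and 8.18 and afatinib 8.06, 8.13 and 8.40, and in HaCaT-PIK3CA PBS gave 7.83, 7.97 and 8.34 and afatinib 7.94, 8.33 and 8.71. Those ranges overlapped over all batches, and within batch M each afatinib value exceeded its PBS value. Within batch J both HaCaT-HRAS afatinib arrays also lay above both PBS arrays. In HaCaT-PIK3CA the batch J afatinib array at 7.94 lay below the PBS array at 7.97. With cetuximab HaCaT-HRAS ranged from 7.90 to 8.26. The change was 0.38 in HaCaT-Mock (adjusted p = 0.00016), 0.42 in HaCaT-EGFR (adjusted p = 0.00036), 0.31 in HaCaT-PIK3CA (adjusted p = 0.0036) and 0.23 in HaCaT-HRAS (adjusted p = 0.12), or 0.11 there without the 3 arrays that stand apart (adjusted p = 0.33). Without HaCaT-PIK3CA PBS replicate 1 the change in that line was 0.27 (adjusted p = 0.058). The difference between HaCaT-HRAS and HaCaT-Mock, -0.15, was not called (adjusted p = 0.60), and without the 3 arrays that stand apart it was -0.26 (adjusted p = 0.012). The gefitinib arrays of HaCaT-HRAS read 8.72, 8.16 and 8.32, the first of them on the array farthest from its group. ERBB2 rose by 0.42 with gefitinib there, and the change was 0.19 without that array (adjusted p = 0.30) and 0.08 without the 3 arrays (adjusted p = 0.97). The last value rests on 1 gefitinib array, from batch M, whose spread is taken from the other groups. That array itself had a high residual in the full fit (0.210). The other 2 ERBB2 probe sets, 210930_s_at and 234354_x_at, were dim and were not called.

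EGFR itself rose with the inhibitors in HaCaT-EGFR and HaCaT-Mock and did not pass the test in the other lines. In HaCaT-EGFR 224999_at was 10.95 and 11.02 with PBS, 11.83, 12.01 and 11.39 with afatinib, 11.62, 11.79 and 11.18 with gefitinib and 11.20, 11.20 and 10.52 with cetuximab. The lowest value of each inhibitor is its batch M array, and there was no PBS array in batch M for this line. The rise over the 3 inhibitors in HaCaT-EGFR was 0.64 (adjusted p = 3.8e-07), and 201983_s_at, 201984_s_at, 210984_x_at and 211607_x_at rose with it by 0.44 to 0.49. Those 4 are less certain. Without HaCaT-EGFR PBS replicate 1 their adjusted p lay between 0.093 and 0.24, and without replicate 2 that of 3 of them lay between 0.075 and 0.16. The call of 201983_s_at was also lost without gefitinib replicate 3 (0.44, adjusted p = 0.054). In HaCaT-Mock batch J gave 10.96 and 11.01 with PBS and 11.52, 11.28 and 11.05 with afatinib, gefitinib and cetuximab, and batch E gave 10.42 with PBS and 10.80, 10.59 and 10.39. In both batches the order was afatinib, gefitinib and then cetuximab, and in batch E cetuximab was below PBS. The change over the 3 inhibitors in HaCaT-Mock was 0.29 (adjusted p = 0.0049) for 224999_at and was not called for the other EGFR probe sets (201984_s_at passed at 0.27 without the 3 arrays that stand apart, adjusted p = 0.0023). It was -0.05 in HaCaT-HRAS (adjusted p = 0.89) and 0.02 in HaCaT-PIK3CA (adjusted p = 0.93), where PBS gave 10.84, 10.98 and 10.32 and 10.85, 10.91 and 10.18. The response of HaCaT-HRAS differed from HaCaT-Mock by -0.34 (adjusted p = 0.066), which did not pass. Without a batch term the change over the 4 lines was 0.11 (adjusted p = 0.64).

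The EGFR transcript of HaCaT-EGFR can come from the cell's own gene and from the open reading frame in the vector. Which part of the transcript each probe set covers was not analysed here, and a probe set outside the reading frame would not check the construct. With PBS, HaCaT-EGFR differed from HaCaT-Mock by 0.00 for 224999_at, with a 95% interval from -0.22 to 0.22. The other bright probe sets were higher by 0.39 (201983_s_at), 0.16 (201984_s_at), 0.41 (210984_x_at) and 0.42 (211607_x_at), and none passed (adjusted p of 0.40 or more, background 0.317%, with 3 members at an unadjusted p under 0.05). Under scramble 210984_x_at was higher by 0.40 (adjusted p = 0.20) and 224999_at lower by 0.12, and none was called (background 1.06%, 3 members at an unadjusted p under 0.05). A higher EGFR level in HaCaT-EGFR was not detectable in these probe sets at this number of arrays. The study itself reports EGFR mRNA overexpression in this line by RT-PCR and more phosphorylated EGFR by western blot. Its RT-PCR after afatinib matched its arrays for the genes tested, except EGFR in HaCaT-EGFR. For HaCaT-PIK3CA against HaCaT-Mock limma called no member under PBS (background 0.0677%) or scramble (background 0.00732%), and 0 and 3 had an unadjusted p under 0.05.

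ERBB3 was higher in HaCaT-HRAS than in HaCaT-Mock with PBS and with scramble in the main fit, and with PBS the call depended on the setting. The probe set 226213_at was higher than in HaCaT-Mock by 0.32 with PBS (adjusted p = 0.0035) and by 0.43 with scramble (adjusted p = 5.8e-05), and 202454_s_at by 0.35 (adjusted p = 0.026) and 0.41 (adjusted p = 0.0066). These were the 2 members called in each comparison, against backgrounds of 9.70% with PBS and 8.78% with scramble. The share of the 21 members called was thus close to that of all probe sets. With PBS, 2 of 3 HaCaT-HRAS arrays of 226213_at lay above every HaCaT-Mock array, and with scramble 3 of 3 did. With scramble and PBS together the order was the reverse, and this was not tested. There 226213_at was 8.57 on the 1 HaCaT-Mock array and 8.37 on both HaCaT-HRAS arrays. The values of 202454_s_at were 7.39 against 7.16 and 7.29. The call of 226213_at with PBS was lost without the batch term (0.22, adjusted p = 0.31) and within batch J (0.35, adjusted p = 0.11). It was also lost with only the groups compared in the fit (0.35, adjusted p = 0.085) and with the replicate number as a block (0.35, adjusted p = 0.12). That of 202454_s_at with PBS was lost when any 1 of 5 arrays, namely HaCaT-HRAS PBS replicate 2 or 3 or any HaCaT-Mock PBS array, was left out, with adjusted p between 0.051 and 0.13.

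In the main fit EGFR and ERBB2 transcripts were higher with gefitinib than with cetuximab at these doses, and ERBB3 was so for 226213_at only. Afatinib, at 10 nM, changed EGFR 224999_at by 0.40, ERBB2 216836_s_at by 0.36 and ERBB3 226213_at by 0.51 averaged over lines. Gefitinib, at 100 nM, changed them by 0.25, 0.42 and 0.47 (0.31, 0.34 and 0.47 without the 3 arrays that stand apart), and cetuximab, at 100 nM, by 0.03 (adjusted p = 0.79), 0.23 (adjusted p = 0.00029) and 0.34 (adjusted p = 1.5e-09). Afatinib called 8 members (background 26.6%), gefitinib 8 (27.1%) and cetuximab 4 (18.9%). The dose of afatinib differs, so it is set beside the others without a test. Gefitinib and cetuximab have the same molar dose, and 1 pair of agents was compared over all probe sets. Gefitinib was higher by 0.22 for EGFR 224999_at (adjusted p = 0.0046), 0.31 for EGFR 201983_s_at (adjusted p = 0.027), 0.20 for ERBB2 (adjusted p = 0.0092) and 0.13 for ERBB3 226213_at (adjusted p = 0.046), and lower by 0.26 on the log2 scale for the dim ERBB4 233498_at (adjusted p = 0.022). Those were 5 of the 21 members, against a background of 5.49%. The second ERBB3 probe set, 202454_s_at, differed by 0.07 (adjusted p = 0.54). The ERBB3 difference was lost in 16 of the 23 fits that left out 1 of the arrays compared, and that of EGFR 201983_s_at in 7. For the brightest probe sets none of these differences passed within batch J, without the batch term or with the replicate number as a block. Without the 3 arrays that stand apart EGFR 224999_at differed by 0.27 (adjusted p = 0.00016) and ERBB2 by 0.11 (adjusted p = 0.047), and ERBB3 226213_at (0.13, adjusted p = 0.058) and EGFR 201983_s_at (0.26, adjusted p = 0.11) no longer passed. Equal molar doses of an antibody and a small molecule are not equal in effect, so the comparison is of these doses.

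Single inhibitors in single lines made 12 comparisons. ERBB3 226213_at was called higher in 9 of them, 202454_s_at in 8, ERBB2 216836_s_at in 6 and EGFR 224999_at in 4. In HaCaT-Mock ERBB3 226213_at rose by 0.79 with afatinib, 0.61 with gefitinib and 0.45 with cetuximab, where 18.8%, 14.7% and 7.79% of all probe sets were called. In HaCaT-EGFR it rose by 0.76, 0.62 and 0.51 (backgrounds 17.2%, 15.5% and 7.15%). In HaCaT-PIK3CA it rose by 0.35, 0.49 and 0.29 (backgrounds 4.70%, 9.84% and 10.2%), and the first call was lost without afatinib replicate 2 (0.28, adjusted p = 0.082), but not without the 3 arrays that stand apart (0.46, adjusted p = 1.8e-05), and the last without cetuximab replicate 1 (0.20, adjusted p = 0.14) or PBS replicate 3 (0.26, adjusted p = 0.063). In HaCaT-HRAS the values were 0.16, 0.16 and 0.11, none called by limma (backgrounds 1.83%, 9.12% and 0.176%). ERBB2 was called with afatinib and gefitinib in HaCaT-Mock and HaCaT-EGFR and with gefitinib in HaCaT-HRAS and HaCaT-PIK3CA, and with cetuximab in no line. Without the 3 arrays that stand apart its call with gefitinib in HaCaT-HRAS was lost and others were added, with cetuximab in HaCaT-EGFR (0.32, adjusted p = 0.00039), HaCaT-Mock (0.28, adjusted p = 0.00048) and HaCaT-PIK3CA (0.27, adjusted p = 0.00057), and with afatinib in HaCaT-PIK3CA (0.41, adjusted p = 4.5e-06) and HaCaT-HRAS (0.22, adjusted p = 0.015). In HaCaT-PIK3CA its gefitinib call was lost without PBS replicate 1 (0.35, adjusted p = 0.054) or gefitinib replicate 2 (0.31, adjusted p = 0.19). EGFR 224999_at rose by 0.54 with afatinib and 0.29 with gefitinib in HaCaT-Mock and by 0.97 and 0.75 in HaCaT-EGFR, and these were its 4 calls. The gefitinib call in HaCaT-Mock was lost without any 1 of the PBS arrays or of gefitinib replicates 1 and 3, with adjusted p between 0.07 and 0.2.

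**Figure D3:**
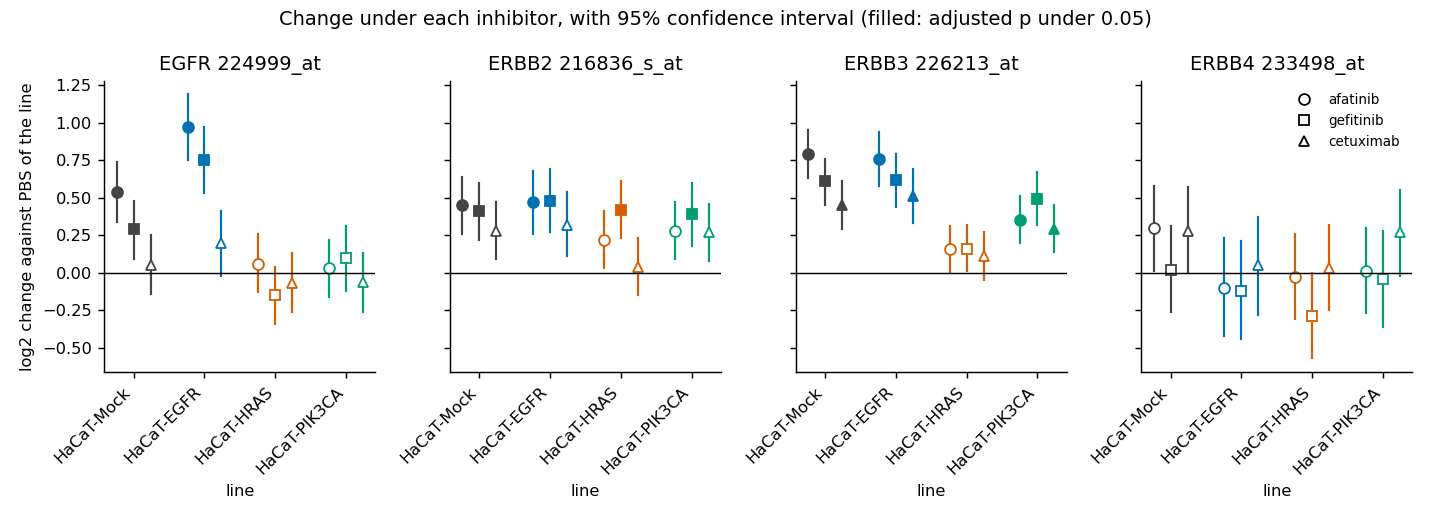
Change of the brightest probe set of each receptor (log2, with 95% intervals) for each inhibitor against PBS in each HaCaT line; filled points passed an adjusted p of 0.05. ERBB3 is filled in 9 of 12 comparisons, ERBB2 in 6, EGFR in 4 and ERBB4 in none.

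Cells that had also received scramble gave a further set of inhibitor arrays, 1 for each agent and line. ERBB3 226213_at was higher with inhibitors than with PBS by 0.34 (adjusted p = 7.6e-07) and 202454_s_at by 0.41 (adjusted p = 9.9e-06). In HaCaT-Mock, for example, 226213_at was 8.57 with PBS and 9.08, 8.80 and 8.71 with afatinib, gefitinib and cetuximab. ERBB2 changed by 0.17 (adjusted p = 0.065, and 0.00081 without the 3 arrays that stand apart) and EGFR 224999_at by 0.14 (adjusted p = 0.18). The 2 ERBB3 probe sets were the members called, where 11.1% of all probe sets were. For scramble with PBS against PBS alone no member was called by limma (background 3.64%, 3 members at an unadjusted p under 0.05). The differences were 0.08 for ERBB3, 0.14 for ERBB2 and -0.11 for EGFR.

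ERBB4, the receptor that binds neuregulins and has a full kinase, was read by dim probe sets only. Its 233498_at ranged from 3.864 to 4.754 over the 96 arrays and 233494_at from 3.357 to 4.133. With PBS 233498_at was 4.38, 3.97 and 3.96 in HaCaT-Mock, 4.09, 4.38 and 4.37 in HaCaT-PIK3CA, 4.33, 4.34 and 4.31 in HaCaT-HRAS and 4.51 and 4.21 in HaCaT-EGFR, so the lines overlapped. Averaged over lines its 4 probe sets changed by -0.05 to 0.03 with the inhibitors and by -0.12 to 0.04 with siEGFR. Of 196 tests on them over 49 comparisons 1 was called, that between gefitinib and cetuximab, and it was lost without the 3 arrays that stand apart (-0.24, adjusted p = 0.086), where 206794_at with siEGFR in HaCaT-PIK3CA passed instead (-0.33, adjusted p = 0.032). At this brightness a change in ERBB4 was not detectable, which does not show that it was absent.

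SCC1 and SCC25 differed in EGFR and ERBB2, as a large share of all probe sets did (background 33.0%). SCC1 and SCC25 are head and neck squamous carcinoma lines, with 1 array each in batches J and M, and FaDu is a pharyngeal one. EGFR 224999_at was 10.33 and 9.58 in SCC1, 11.81 and 11.08 in SCC25 (batch J first), and in batch M 10.33 in FaDu and 10.16 in parental HaCaT. In each batch SCC25 was the highest and SCC1 the lowest of the carcinoma lines. Against HaCaT-Mock under PBS, SCC25 was higher by 0.77 (adjusted p = 3.5e-08) and SCC1 lower by 0.71 on the log2 scale (adjusted p = 2.7e-07). SCC1 was lower than SCC25 by 1.49 on the log2 scale (0.357-fold, adjusted p = 2.2e-16), and all 5 bright EGFR probe sets were called in that direction. ERBB2 216836_s_at ran the other way, at 7.97 and 8.56 in SCC1 and 7.48 and 7.86 in SCC25. SCC25 was lower than HaCaT-Mock by 0.49 on the log2 scale (adjusted p = 0.00019) and SCC1 higher than SCC25 by 0.59 (adjusted p = 2.5e-05). The call between SCC1 and SCC25 was lost without the batch term (0.59, limma adjusted p = 0.06). Within batch J, with 1 array of each line, that difference was 0.49. ERBB3 226213_at was 8.12 and 7.93 in SCC1, 8.26 and 8.06 in SCC25, 8.10 in FaDu and 7.93 in parental HaCaT, and it was called in no comparison. The dimmer ERBB3 probe set 1563253_s_at was higher in SCC1 by 0.30 (adjusted p = 0.017) and in FaDu by 0.41 (adjusted p = 0.012). In SCC1 that call was lost without HaCaT-Mock PBS replicate 3 (0.22, adjusted p = 0.12) or SCC1 replicate 2 (0.24, adjusted p = 0.19). For FaDu the EGFR probe sets disagreed, with 201984_s_at at -0.53 (adjusted p = 0.013) and 201983_s_at at 0.38 (adjusted p = 0.32).

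**Figure D4:**
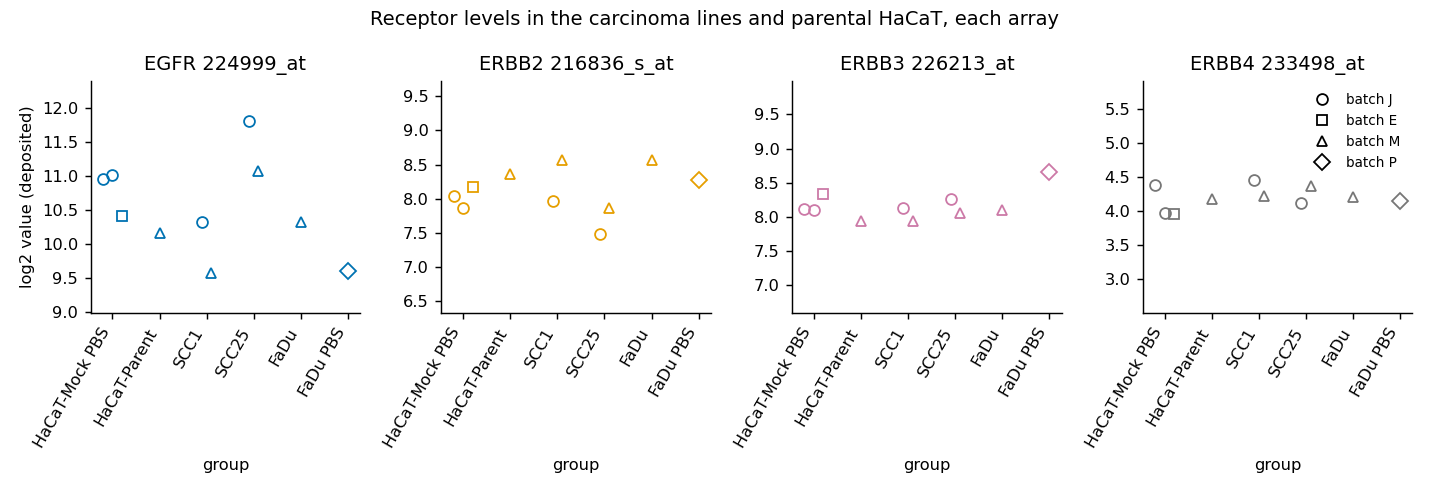
Brightest probe set of each receptor on the carcinoma, parental HaCaT and HaCaT-Mock PBS arrays (log2 value, vertical axis; every panel spans the same height); each point is an array and its symbol the batch. Within each batch SCC25 lies highest for EGFR and lowest for ERBB2, and the ERBB3 and ERBB4 points lie close together, but for ERBB3 on the FaDu array under PBS (8.65), which is alone in its batch.

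Of the 21 members, 4 were called in SCC1 against HaCaT-Mock (background 28.3%), 5 in SCC25 (31.9%), 2 in FaDu (24.6%), 0 in parental HaCaT (12.8%, and 0 at an unadjusted p under 0.05) and 7 between SCC1 and SCC25 (33.0%). Each share of members was close to or below its background, so these counts do not set the receptors apart from other probe sets. With 1 array each, FaDu and parental HaCaT take their spread from the other groups. Set to the level of batch J, 224999_at of EGFR ran in the order SCC25 (11.75, SE 0.0846), HaCaT-Mock and HaCaT-EGFR under PBS (both 10.98), FaDu (10.96), HaCaT-HRAS (10.92) and HaCaT-PIK3CA (10.86) under PBS, parental HaCaT (10.78) and SCC1 (10.27). The first and the last step, 0.77 and 0.51, were wide, and the steps between lay at 0.08 or less, under the SE of 0.122 of a line with 1 array. ERBB2 216836_s_at ran from FaDu (8.19) and SCC1 (8.07) through HaCaT-EGFR (7.99), parental HaCaT and HaCaT-Mock (both 7.97), HaCaT-PIK3CA (7.92) and HaCaT-HRAS (7.85) to SCC25 (7.48), and among them the last step, 0.37, was the widest. ERBB3 226213_at was highest in HaCaT-HRAS (8.44), followed by FaDu and SCC25 (both 8.22), HaCaT-EGFR (8.16), HaCaT-Mock (8.12), SCC1 (8.08), parental HaCaT (8.05) and HaCaT-PIK3CA (8.04), with steps of at most 0.06 after the first.

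Other genes of the pathway were read from lists of ligands, adaptors, receptor regulators and transcription factors, each gene by its brightest probe set. Averaged over lines, 39.2% of all genes were called with the inhibitors and 28.4% with siEGFR, and the median change over all genes was -0.005 and -0.019. Of 11 ligands 9 were measured, and 2 rose and 4 fell with the inhibitors (median 0.01). HBEGF, a ligand of EGFR and ERBB4, fell by 1.34 on the log2 scale (adjusted p = 3.4e-30), NRG1, a ligand of ERBB3 and ERBB4, by 1.02 (adjusted p = 1.7e-22), EREG by 1.04 (adjusted p = 1.4e-12) and TGFA by 0.37 (adjusted p = 4e-08). The 2 that rose, both read by dim probe sets, are named after their values were seen. BTC, another ligand of EGFR and ERBB4, rose by 0.42 (adjusted p = 4e-07, mean level 3.67) and NRG4, a ligand of ERBB4, by 0.24 (adjusted p = 0.0013, mean level 3.87). With siEGFR 2 of the 9 fell, HBEGF by 0.99 (adjusted p = 3.5e-22) and TGFA by 0.54 (adjusted p = 2.2e-10).

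Among 24 adaptors and effectors 20 were measured, of which 10 rose and 3 fell with the inhibitors (median 0.06). PIK3R3, a regulatory subunit of PI3K, rose by 0.79 (adjusted p = 2.8e-16), the RAS exchange factors SOS2 and SOS1 by 0.50 (adjusted p = 8.8e-16) and 0.34 (adjusted p = 7.7e-09), and STAT3 by 0.46 (adjusted p = 1e-13). With siEGFR 5 rose and 3 fell (median 0.04). PIK3R1, another regulatory subunit of PI3K, rose by 0.85 (adjusted p = 1.3e-16) and STAT5B by 0.40 (adjusted p = 6.4e-09), and the catalytic subunit PIK3CB fell by 0.43 on the log2 scale (adjusted p = 9.3e-13) and the adaptor GRB10 by 0.40 (adjusted p = 7.2e-10). PIK3CB, which fell with siEGFR, was 1 of the 10 that rose with the inhibitors (0.25, adjusted p = 2.3e-08).

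Of 22 genes that restrain or turn over the receptors, all measured, 3 rose and 5 fell with the inhibitors (median -0.06). CBLB, a ubiquitin ligase for EGFR, rose by 0.53 (adjusted p = 3e-16), LRIG2 by 0.32 (adjusted p = 3.5e-12) and ERBIN, which binds ERBB2, by 0.61 (adjusted p = 1.1e-10), while ERRFI1, the feedback inhibitor also called MIG6, fell by 0.74 on the log2 scale (adjusted p = 1.6e-09). With siEGFR 6 rose and 4 fell (median -0.05). CBLB rose by 0.42 (adjusted p = 2.8e-10) and CBL by 0.45 (adjusted p = 1.1e-09), and SOCS5 fell by 0.65 on the log2 scale (adjusted p = 1.3e-15) and RNF41, a ubiquitin ligase for ERBB3, by 0.41 (adjusted p = 2.8e-10). Of the 7 transcription factors tied to these receptor genes 4 rose and 1 fell with the inhibitors (median 0.15). TFAP2A (AP-2alpha) rose by 0.31 (adjusted p = 1.3e-15), FOXO3 by 0.33 (adjusted p = 4.6e-13), FOXO1 by 0.28 (adjusted p = 2.4e-06) and SP1 by 0.15 (adjusted p = 0.0026). With siEGFR TFAP2A rose by 0.18 (adjusted p = 5e-07) and TFAP2C fell by 0.18 on the log2 scale (adjusted p = 0.00085). In HaCaT-HRAS with the inhibitors the lists gave 1 ligand lower, 1 adaptor higher, 1 regulator lower and no transcription factor, where 6.01% of all genes were called.

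The genes whose mean levels over 24 groups (4 lines under PBS, each inhibitor, scramble and siEGFR) most resembled each receptor were taken from 7138 bright and variable genes, as a description with no test. Each receptor was read by its brightest probe set. For EGFR they were C6orf62 (r = 0.971), NCK2 (0.962), LIMA1 (0.955), RNF139 (0.950) and USP33 (0.943). For ERBB2 they were SMPD1 (0.978), AP1G2 (0.977), EPS8L2 (0.976), DCTN2 (0.974) and GAS6 (0.971). For ERBB3 they were EFNA1 (0.904), GCC2 (0.902), TNFAIP8 (0.895), DENND2C (0.893) and RAB27B (0.892). For ERBB4 the highest was HRH3 at 0.518, followed by THBS1 (0.50), PPP1R2 (0.468), TMEM165 (0.468) and CYB5B (0.457), and its own probe set was too dim and level to enter the pool.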

How the data were processed

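The deposited values are log2 expression values from Affymetrix U133 Plus 2.0 arrays, 54675 probe sets on 96 arrays, made by the authors. The affy package is named in the submitters' processing notes, and the study's methods add fRMA, a batch correction and the removal of outlying arrays. The sources used here do not say which of these steps had been applied to them. Array medians lay between 5.08 and 5.175. Precision is limited by the number of arrays, and no 2 arrays held identical values.

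Probe sets were named from the platform annotation, and those with several symbols were left out as members. After 62 control probe sets were removed, 54613 were fitted with limma 3.58.1 (R 4.3.3), with a term for each group and for batches J, E and M, over the 89 HaCaT construct arrays (47 residual degrees of freedom). A second fit over 95 arrays gave the carcinoma comparisons, and the batch P array was left out. Inhibitor effects were averaged with equal weight over agents and lines. Adjusted p is Benjamini-Hochberg over all probe sets of a comparison (19775 genes for the lists), called under 0.05, and intervals are 95%. SE is that of the log2 change. The fit was tested on simulated data first.

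Members, lists and tests were chosen with earlier results of these data known. Every receptor probe set was examined in 49 comparisons. Of each list, the 4 genes with the lowest adjusted p with the inhibitors are named, and up to 4 called with siEGFR, as are the 5 genes most like each receptor. The comparisons of siEGFR responses between lines, and with inhibitor responses, were added after the data were seen. Replicate numbers did not pair the arrays, and the number as a block was an alternative. The other alternatives were the batch handling, array weights, normalization, filters and leaving out arrays.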

Additional observations from a re-analysis of the deposited data

Results flagged for a closer look

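Effects of the inhibitors on ERBB3 differed between HaCaT-HRAS and HaCaT-Mock by a test of the difference itself, for both of its bright probe sets. The response in HaCaT-HRAS minus that in HaCaT-Mock was -0.47 for 226213_at and -0.53 for 202454_s_at on the log2 scale. In HaCaT-HRAS the PBS arrays of 226213_at lay between 8.30 and 8.48 and those of HaCaT-Mock between 8.10 and 8.33, ranges that overlap. Arrays with an inhibitor alone lay between 8.45 and 8.64 in HaCaT-HRAS and between 8.47 and 9.15 in HaCaT-Mock. For 226213_at the difference was not called within batch J alone, without the batch term or with the replicate number as a block. No group had more than 3 arrays, so single arrays far from their group were not tested for.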

How the results depend on the processing

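The results below are 28 comparisons of the brightest probe set of each receptor, recomputed under 10 other settings and, in 96 refits, without each array of a comparison in turn (532 values). Batch J alone and the replicate block gave 24 of the 28, the first without inhibitors after scramble and the second without the carcinoma lines, and the setting without dim probe sets gave 21, since ERBB4 was left out. Quantile normalization changed no call among them. Without the batch term EGFR 224999_at with the inhibitors was 0.11, ERBB3 226213_at in HaCaT-HRAS against HaCaT-Mock under PBS 0.22 and its response difference -0.43, gefitinib against cetuximab 0.19 for EGFR, 0.21 for ERBB2, 0.12 for ERBB3 and -0.27 for ERBB4, and ERBB2 in SCC1 against SCC25 0.59, and all of these calls were lost. EGFR 211607_x_at in SCC1 against HaCaT-Mock turned from -0.49 to 0.13 there. Within batch J alone calls were lost for ERBB3 in HaCaT-HRAS (0.35) and its response difference (-0.45), for gefitinib against cetuximab (EGFR 0.20, ERBB2 0.21, ERBB3 0.15, ERBB4 -0.35) and for ERBB2 in SCC1 against SCC25 (0.49). With only the groups compared in the fit, calls were lost for ERBB3 in HaCaT-HRAS (0.35) and for gefitinib against cetuximab in ERBB2 (0.20) and ERBB3 (0.13). With batch as a random block ERBB3 lost gefitinib against cetuximab (0.13).

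Replicate numbers did not pair the arrays: over 12 pairs of groups the deviations of same-numbered arrays correlated between -0.1 and 0.11 (median 0.03). With the replicate block, calls were lost for ERBB3 in HaCaT-HRAS (0.35) and its response difference (-0.53), and for gefitinib against cetuximab (EGFR 0.21, ERBB2 0.22, ERBB3 0.16, ERBB4 -0.33).

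Other settings added calls. ERBB2 with siEGFR passed with only the groups compared (0.12), array weights (0.11), dim probe sets left out (0.12), 1 probe set per gene (0.12) and without the 3 arrays that stand apart (0.12). ERBB2 with inhibitors after scramble passed under the last 4 of these (0.17 in each), and the EGFR response difference of HaCaT-HRAS under array weights, without dim probe sets and with 1 probe set per gene (-0.34 in each). That of ERBB2 passed with array weights (-0.19) and without the 3 arrays (-0.26), a setting in which gefitinib against cetuximab lost ERBB3 (0.13) and ERBB4 (-0.24). The estimation of array weights stopped before it converged.

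With 1 array left out, gefitinib against cetuximab ranged from 0.10 to 0.15 for ERBB3 and from -0.28 to -0.24 for ERBB4, ERBB2 with siEGFR from 0.10 to 0.14 (called without HaCaT-Mock siEGFR replicate 1) and the EGFR response difference of HaCaT-HRAS from -0.39 to -0.30 (called in 3 fits). By the probe set rule of the study, 5 and not 3 receptor regulators were called higher with the inhibitors, and without batch adjustment 3 of the 5 genes most like ERBB2 were the same. The cause of these changes was not tested. Dim probe sets, ERBB4 among them, limit what can be seen.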
